A study of Mus musculus with 36 samples.

Results

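The samples described here are the 3 arrays of mouse epiblast stem cells exposed to Purmorphamine, 1 in each of 3 treatment schedules, out of 36 arrays in all. They were chosen by the compound named in the title of each array. They were set against the 27 arrays of the 9 other compounds, with schedule as a block, and also against the 12 arrays of the 4 compounds that lay on the same slide as Purmorphamine. The other 6 arrays, 3 of Mock (basal medium) and 3 of fibroblast-conditioned medium (CM), were not part of the comparator.

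Epiblast stem cells (EpiSC) are pluripotent cells of the epiblast after implantation, grown here in conditioned medium with bFGF and Activin, and the labels name no strain, sex or genotype. RNA was measured on Illumina mouseWG-6 v2 bead arrays. All schedules held Purmorphamine at 2 µM, for 24 h beside 36 h of retinoic acid (RA) at 5 µM, for 36 h beside 24 h of RA at 5 µM, or for 24 h beside a Mock treatment of 36 h in place of RA. The time under RA and the time under the compound therefore change together between the schedules with RA, and each compound had 1 array per schedule.

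The compounds on the slide of Purmorphamine were BAPTA-AM at 10 µM, a chelator of calcium, Docetaxel at 500 pM, which stabilises microtubules, Wortmannin at 50 nM, which inhibits PI3 kinases, and SU5402 at 2 µM, which inhibits FGF receptors. The 5 on the other slide of each schedule were Rapamycin at 100 nM, an mTOR inhibitor, PF573228 at 250 nM, an inhibitor of focal adhesion kinase, Dorsomorphin dihydrochloride at 2 µM, which inhibits BMP receptors and AMPK, BAY 11-7082 at 25 µM, which blocks NF-kB activation, and Forskolin at 50 µM, which activates adenylyl cyclase. Forskolin is also an established brake on Hedgehog signalling, since protein kinase A keeps Gli proteins in their repressor form.

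Purmorphamine is a synthetic purine that binds and activates Smoothened, the membrane protein that passes the Hedgehog signal into the cell. Without a Hedgehog ligand the receptor Ptch1 holds Smoothened inactive, and Gli3 and Gli2 are cut into repressors at the primary cilium. With ligand, or with a Smoothened agonist, Gli proteins turn on targets that include Ptch1, Gli1 and Hhip, and in the neural tube, where RA and Hedgehog signals act together, ventral genes such as Nkx6-1 and Olig2 are induced while dorsal genes such as Msx1 and Zic1 are restricted.

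All levels below are normalised log2 intensities, and differences are log2 levels with Purmorphamine minus the mean of the 9 other compounds. A probe counts as detected where its detection p is under 0.05. The mean raw intensity of the Purmorphamine arrays lay between 389.6 and 508.3 units, inside the range of the 9 other compounds in each schedule. Purmorphamine arrays detected 39.13% and 40.17% of probes in the schedules with RA, inside the range of the others, and 37.43% without RA, against 37.64% to 40.82%. Distance was measured as the root mean square difference of an array from the mean of the other 9 over all genes. By this measure Purmorphamine ranked 2nd of the 10 compounds with RA for 36 h (0.28). All compounds of its slide (0.2671 to 0.3017) were farther out there than all those of the other slide (0.2479 to 0.2553). That rank therefore does not set Purmorphamine apart from its slide mates. Whether the slide has a part in the differences of that schedule alone was not tested. The 2 slides were not parted in this way in the other schedules. Purmorphamine was the nearest to the others with RA for 24 h (0.24) and without RA (0.21). Its 8 EpiSC markers had a summed intensity of 4239 units with RA for 36 h, 8857 units with RA for 24 h and 39620 units in the schedule lacking RA, where all 8 were detected. Single markers did not all keep this order: Pou5f1 had 7.07, 9.50 and 12.40, Nanog 5.98, 5.89 and 11.46, and Sox2 7.79, 6.16 and 6.92. With RA for 36 h the EpiSC sum was below the range of the 9 others (4344 to 6367 units). Of the 8 markers Dnmt3b alone was below their range there (11.83 against 11.90 to 12.36), and it is by far the brightest, so the sum follows it. Summed extraembryonic endoderm markers were below the range of the 9 others with RA for 24 h (1295 against 1376 to 1846 units) and without RA (416.2 against 459.4 to 629.3 units). Of the detected ones, Lama1 alone was below their range with RA for 24 h (9.28 against 9.30 to 9.79). Without RA, where 3 of 7 were detected, Dab2 alone was (7.59 against 7.66 to 8.51). Blood and endothelium markers were above the range of the 9 others with RA for 24 h (130.2 against 94.66 to 118.4 units) and below it with RA for 36 h (96.56 against 99.49 to 113.1 units). With RA for 24 h Kdr was the only blood and endothelium marker detected on any compound array, at 5.67 with Purmorphamine against 4.68 to 5.39. The part of these sums in the results below was not tested. The Mock array labelled with RA for 24 h correlated at r = 0.99 with the compound arrays with RA for 36 h, above its r of 0.98 with those of its own label, so Mock levels are given below for orientation only.

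Ptch1, the receptor of Hedgehog ligands and itself a Hedgehog target, stood higher with Purmorphamine than with each of the 9 other compounds in both schedules with RA, and inside their range without RA. With RA for 36 h its level was 9.13 on the Purmorphamine array, while the 9 others had a lowest value of 8.10, a median of 8.43 and a highest of 8.54, and Mock had 8.15. With RA for 24 h it was 9.28 on the Purmorphamine array, against a lowest of 8.21, a median of 8.43 and a highest of 8.80, and 8.50 on Mock. The groups do not overlap in either RA schedule, and the differences were 0.75 and 0.83. Without RA the Purmorphamine array had 7.14, against a lowest of 6.72, a median of 7.49 and a highest of 8.28, with Mock at 6.83, so that it ranked 6th of 10 and the difference was -0.29. Of the 16235 genes tested, 160 (0.986%) were highest with Purmorphamine in both RA schedules, and 10.7%, 7.86% and 6.98% were highest with RA for 36 h, with RA for 24 h and without RA.

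**Figure D1:**
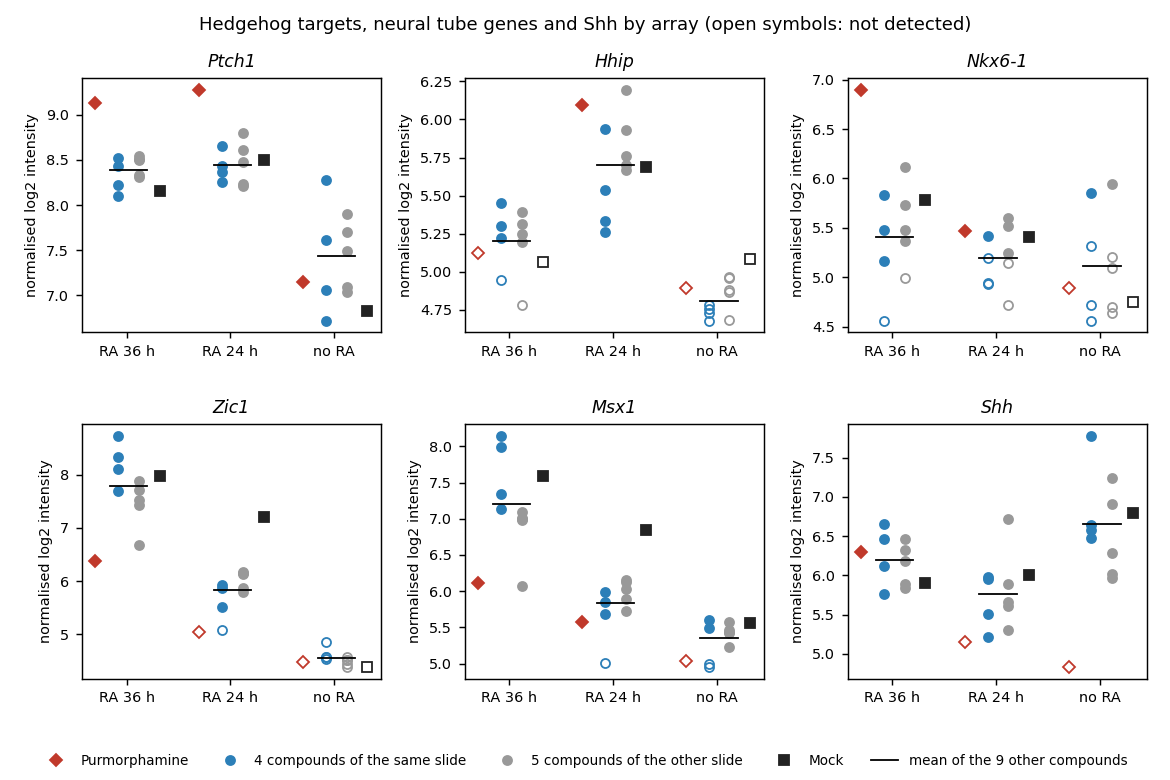
Normalised log2 intensity (y axis) of Ptch1, Hhip, Nkx6-1, Zic1, Msx1 and Shh on each array, by schedule (x axis). Diamonds are Purmorphamine, blue circles the 4 compounds of the same slide, grey circles the 5 compounds of the other slide, squares Mock, bars the mean of the 9 other compounds, and open symbols are arrays where the probe was not detected. Ptch1 is above all 9 others in both RA schedules at 9.13 and 9.28, Nkx6-1 stands above them and Zic1 below them with RA for 36 h, and Shh is lowest with Purmorphamine without RA at 4.83.

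Over all 3 schedules the Ptch1 difference was 0.43 (SE 0.20, 95% interval 0.02 to 0.84, 30 arrays), and it did not pass the adjustment over all genes (limma, unadjusted p = 0.042, adjusted p = 0.9954). Moving the Purmorphamine label over the 10 compounds within each schedule gave p = 0.044 for Ptch1 (exact permutation test, two-sided, 1000 arrangements), or 0.088 after Benjamini-Hochberg adjustment over the 2 genes tested in this way. Over the 5 compounds of the slide the difference was 0.46 with p = 0.128 (exact permutation test, two-sided, smallest possible p of 0.008). The difference with RA for 36 h exceeded that without RA by 1.04 (unadjusted p = 0.03129), and the difference with RA for 24 h exceeded it by 1.12 (unadjusted p = 0.02073), but neither passed the adjustment over all genes (limma, adjusted p = 0.9995 and 0.9997).

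On the 20 compound arrays with RA alone, a comparison added after these values were seen, Ptch1 was higher with Purmorphamine by 0.79 (SE 0.13, 95% interval 0.51 to 1.07), or 1.73-fold, and passed the threshold (limma, adjusted p = 0.04287). It was detected on all 20 of these arrays, and the exact permutation test over the 2 schedules gave p = 0.01, the smallest its 100 arrangements can give (0.02 after Benjamini-Hochberg adjustment over the 2 genes). Ptch1 had already been seen to be highest of the compounds in both RA schedules. The outcome of this exact test was thus set by the choice of arrays, and it adds no support. Ptch1 was 1 of 3 genes called there (0.0185% of 16235, with 4.07% at an unadjusted p of 0.05), beside Fbp1 and Hydin. Fbp1 had passed the detection filter only with its Purmorphamine arrays. The Ptch1 call rests on both Purmorphamine arrays, since adjusted p was 0.6682 without the array with RA for 36 h and 0.3302 without that with RA for 24 h, and it held in 6 of 21 other settings. The Hydin call held in 8 of 20 other settings, with an adjusted p of 0.9999 without the Purmorphamine array with RA for 36 h and 0.1288 without that with RA for 24 h. Leaving out Rapamycin, PF573228, BAY 11-7082, Forskolin, Docetaxel, Wortmannin or SU5402 also ended the Ptch1 call, with adjusted p between 0.06828 and 0.09823. Over the 29 compound arrays left without the Purmorphamine array without RA, Ptch1 had the same difference and was not called (limma, adjusted p = 0.5584). Against the 4 slide mates with RA alone the difference was 0.83 and 0 genes were called (limma, adjusted p = 0.239 for Ptch1, 3.88% of genes at an unadjusted p of 0.05). In the authors' own log2 values Ptch1 was the 1 gene called (0.45, adjusted p = 0.01021), and with the mean of its 2 tested probes it was not called (0.66, adjusted p = 0.2945). The dimmer of the 2 Ptch1 probes, detected on 13 of 36 arrays, showed differences of 0.44, 0.61 and -0.19 with RA for 36 h, with RA for 24 h and without RA.

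Printed here are the 250 bases before the annotated start of the 3 genes called on the RA arrays, since Ptch1 is a direct Gli target and the windows show which of them hold the letters of a Gli site. The sequences are from RefSeq, build GRCm38.p6, and run 5′ to 3′ in the direction of transcription. Capitals mark TGGGTGG, the first 7 letters of the consensus TGGGTGGTC, on either strand.
Ptch1, chr13:63565736-63565985, minus strand: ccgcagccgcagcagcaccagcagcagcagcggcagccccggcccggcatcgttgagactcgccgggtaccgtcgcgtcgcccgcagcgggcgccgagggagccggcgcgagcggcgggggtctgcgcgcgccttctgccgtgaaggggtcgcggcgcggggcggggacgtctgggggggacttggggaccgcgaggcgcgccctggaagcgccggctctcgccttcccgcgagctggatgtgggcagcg
Fbp1, chr13:62888283-62888532, minus strand: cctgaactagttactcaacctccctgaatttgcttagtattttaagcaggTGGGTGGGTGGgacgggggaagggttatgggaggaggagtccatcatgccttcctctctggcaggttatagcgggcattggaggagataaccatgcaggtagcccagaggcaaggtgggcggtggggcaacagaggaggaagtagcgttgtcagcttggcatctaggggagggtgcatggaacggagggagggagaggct
Hydin, chr8:110266727-110266976, plus strand: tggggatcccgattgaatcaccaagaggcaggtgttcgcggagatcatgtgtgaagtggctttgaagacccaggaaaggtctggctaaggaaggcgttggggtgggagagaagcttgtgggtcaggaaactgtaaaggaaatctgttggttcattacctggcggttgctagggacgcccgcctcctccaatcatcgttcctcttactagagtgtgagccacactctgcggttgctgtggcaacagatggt
The window of Fbp1 holds 2 overlapping copies of the 7 letters, starting 200 and 196 bases before the start, while those of Ptch1 and Hydin hold none. The 7 letters occur in 8.11% of 32851 windows of this length, and the full consensus occurs in 0.225% of them and in none of the 10 genes searched, which besides these 3 were Hhip, Gli2, Gli3, Nkx6-1, Nkx2-9, Msx1 and Zic1. Nkx2-9 holds 1 copy of the 7 letters. A match or its lack says only whether these letters are in this window.

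Among the other Hedgehog targets no gene was called. Gli1, the transcription factor most often read out for the pathway, had 1 probe, which was detected on 0 of 36 arrays. Hhip, which binds Hedgehog ligands at the cell surface and dampens the signal, was at 5.12, 6.10 and 4.90 with Purmorphamine with RA for 36 h, with RA for 24 h and without RA. Its highest level was thus in the schedule with RA for 24 h, where it was 2nd of 10 compounds, between a median of 5.70 and a highest value of 6.20 of the 9 others. The difference over all schedules was 0.13 (SE 0.13; exact permutation test, p = 0.352). Foxf1, a forkhead factor of Hedgehog-responsive mesoderm, was detected with RA for 24 h on the Purmorphamine array and on 0 of the 9 others, at least 1.24-fold higher there (limma, adjusted p = 0.9999), with 5.45 against a highest value of 5.05. It was at or below the median of the 9 others in the other schedules. Detection was on 3 of 36 arrays, so Foxf1 met the filter of detection on 3 arrays only with this Purmorphamine array. Ccnd1, a G1 cyclin, differed by 0.20, 0.24 and 0.00, and Bcl2, Ccnd2, Sfrp1 and Jag2 by no more than 0.10 either way over all schedules.

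Of the 18 targets listed, 11 were tested and 0 were called. For 1, Ptch1, the unadjusted p was under 0.05 in the higher direction, and for 0 in the lower, where 2.09% and 1.59% of all genes did so. The median difference over the 11 was 0.05, beside 0.00 over all genes tested. Ptch1 and Nkx6-1 stood at the upper end of the list. Foxf2, Foxl1, Foxd1, Mycn and Nkx2-2 missed the filter of detection on 3 arrays.

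**Figure D2:**
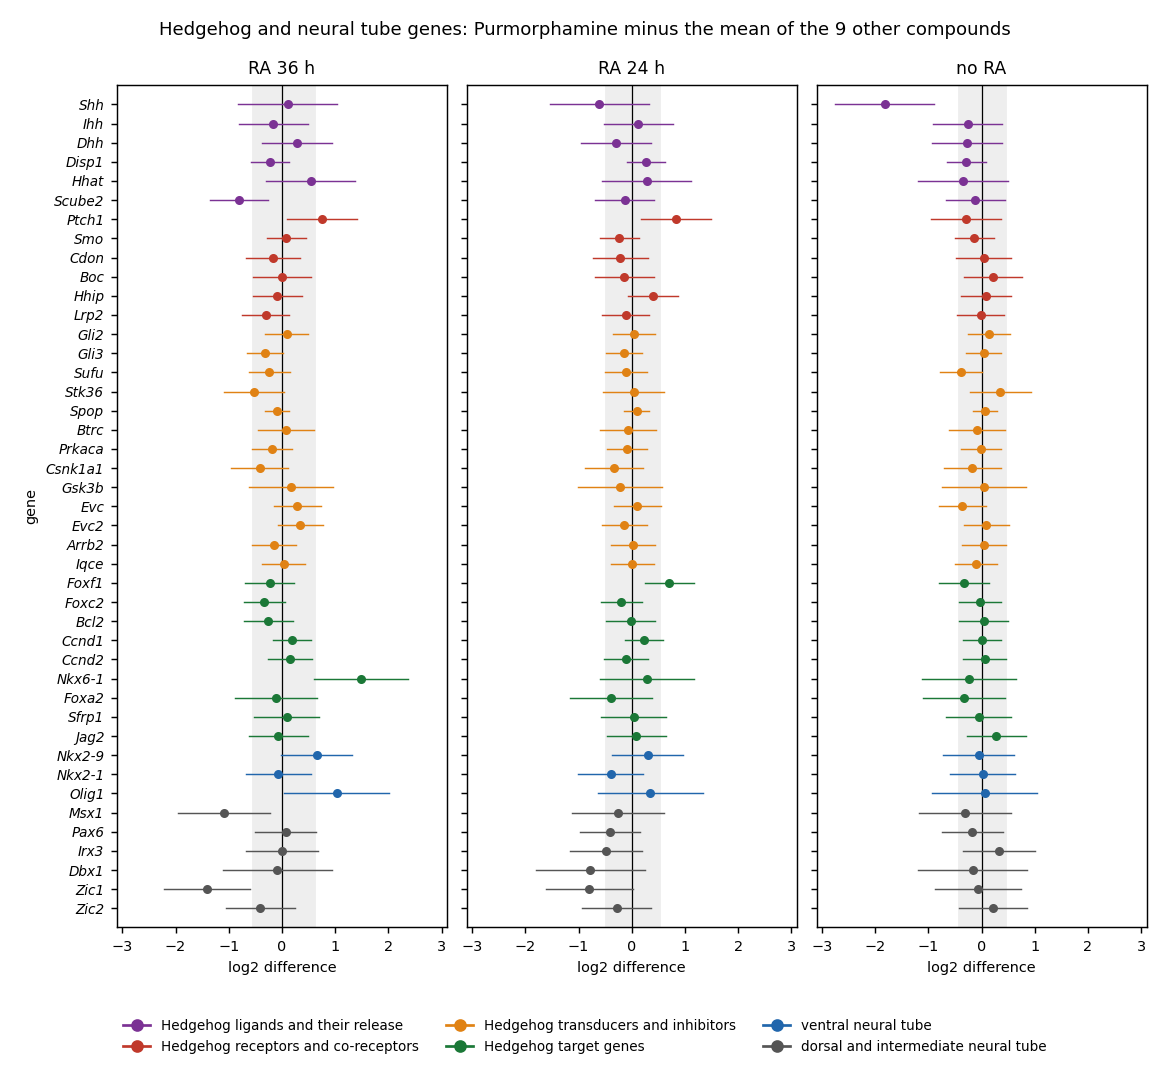
Difference of Purmorphamine from the mean of the 9 other compounds (x axis, log2, dots, with 95% intervals of the limma fit as lines) for the tested members of the Hedgehog and neural tube lists (rows), in each schedule. The grey band holds the middle 95% of all 16235 genes, and a gene on more than 1 list is shown under the first. Ptch1 lies right of the band in both RA schedules (0.75 and 0.83), Nkx6-1 (1.49) and Olig1 (1.03) right of it and Zic1 (-1.41) and Msx1 (-1.09) left of it with RA for 36 h, and Shh (-1.82) left of it without RA.

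Of the 8 receptors and co-receptors, 6 were tested and 0 were called, with a median of -0.04. Smo, the target of Purmorphamine, was at 9.64, 9.13 and 9.44 with the compound and differed by 0.08, -0.23 and -0.14, inside or just below the range of the 9 others. The co-receptors Cdon and Boc differed by -0.11 and 0.02 over all schedules, and Lrp2, an endocytic receptor for Shh, by -0.15. Gas1, another co-receptor, was not detected on enough arrays to be tested.

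Among the 13 tested transducers and inhibitors of 17 listed, 0 were called and the median was -0.03. Gli2 and Gli3, the Gli proteins that are processed at the cilium, were detected on all 36 arrays. Gli2 had 9.27, 9.68 and 9.61 with Purmorphamine and differed by 0.09 over all schedules. Gli3 had 11.42, 11.09 and 10.89, and its lowest position among the 10 compounds was with RA for 36 h, where the 9 others began at 11.57 (difference -0.31, unadjusted p = 0.06728). Sufu, which holds Gli proteins in the cytoplasm, differed by -0.25 over all schedules without passing the adjustment (limma, unadjusted p = 0.03014), but its 2 other tested probes differed by -0.04 and -0.15. The kinase Csnk1a1 (-0.31, unadjusted p = 0.04538) was detected on 4 of 36 arrays and on 0 of 3 with Purmorphamine. Prkaca, Gsk3b, Spop and Btrc, which phosphorylate Gli proteins or mark them for processing, differed by no more than 0.10 over all schedules on the probe taken for each gene. The 3 other tested Btrc probes differed by -0.50 (limma, unadjusted p = 0.009034), -0.32 and -0.13, and the first of these was detected on 18 of 36 arrays and on 0 of 3 with Purmorphamine.

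The ligand Shh showed its largest difference without RA. There the Purmorphamine array had 4.83 and did not detect it, while the 9 others all detected it, with a lowest value of 5.97, a median of 6.58 and a highest of 7.78, and Mock had 6.79. The groups do not overlap, and Shh was at least 2.43-fold lower with Purmorphamine (difference -1.82, 95% interval -2.76 to -0.89), without passing the adjustment (limma, unadjusted p = 0.0004126, adjusted p = 0.8299). Of all genes, 7.52% were lowest with Purmorphamine without RA. With RA for 24 h the Purmorphamine array had 5.15, again not detected, against a lowest value of 5.22 among the 9 others, and with RA for 36 h it had 6.30, inside their range of 5.77 to 6.65. A second Shh probe, detected on 12 of 36 arrays, differed by -0.29, -0.10 and -0.99 with RA for 36 h, with RA for 24 h and with no RA. The summed extraembryonic endoderm markers of the same 2 arrays were below the range of the 9 others. Among the detected markers, Lama1 alone was below its range with RA for 24 h and Dab2 alone without RA. In bulk RNA such a difference cannot tell fewer cells with a transcript from less of it per cell. Foxa2, a floor plate and node gene that Shh induces, was detected without RA at 6.16 with Purmorphamine and 5.98 to 7.34 with the 9 others.

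Scube2, which helps to release lipid-bearing Hedgehog ligands, was below all 9 others with RA for 36 h, at 4.69 against 4.89 to 5.92, and detected on 8 of those 9 arrays but not with Purmorphamine (unadjusted p = 0.00523, adjusted p = 0.5322). Of all genes, 10.2% were lowest with Purmorphamine with RA for 36 h. Disp1 and Hhat, which release and acylate the ligands, differed by -0.08 and 0.16 over all schedules. Of the 6 genes of this list, all tested, 0 were called and the median was -0.10.

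The neural tube genes did not share 1 schedule of widest difference. Dbx1, Irx3, Pax6, Foxa2 and Nkx2-1 differed most with RA for 24 h, and Shh without RA. Nkx6-1, Olig1, Nkx2-9, Zic1, Zic2 and Msx1 differed most with RA for 36 h. Nkx6-1, a ventral progenitor gene repressed dorsally, had 6.90 on the Purmorphamine array, while the 9 others had a lowest value of 4.56, a median of 5.47 and a highest of 6.11, and Mock had 5.78. Olig1 had 7.68, against a lowest of 5.03, a median of 7.02 and a highest of 7.33, with Docetaxel as the lowest. Nkx2-9, expressed beside the floor plate, had 6.07, against a lowest of 5.13, a median of 5.31 and a highest of 5.98. These 3 of the 6 tested ventral genes were thus highest with Purmorphamine in this schedule, 1.49, 1.03 and 0.65 above the mean of the others, where 10.7% of all genes were highest with Purmorphamine. At least 1 above the mean of the others were 0.289% of genes, and at least 1 below it 0.0924%. The other ventral genes lay inside the range of the 9 others: Shh was 5th of 10 (0.11), Foxa2 6th (-0.11) and Nkx2-1, a gene of the ventral forebrain, 7th (-0.07). Foxa2 (-0.40) and Nkx2-1 (-0.40) were lowest of the 10 compounds with RA for 24 h, though neither was detected there with Purmorphamine.

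Zic1 and Msx1, both of the dorsal list, stood at the other end with RA for 36 h. Zic1, a dorsal neural gene, had 6.38 on the Purmorphamine array, against a lowest of 6.68, a median of 7.71 and a highest of 8.74, and Mock had 7.97. Msx1, a roof plate gene and BMP target, had 6.11, against a lowest of 6.08, a median of 7.10 and a highest of 8.15, with Mock at 7.59. Zic1 was thus below all 9 others (-1.41) and Msx1 below all but 1 (-1.09), and in both cases Dorsomorphin dihydrochloride was the lowest of the 9. Of all genes, 10.2% were lowest with Purmorphamine in this schedule and 6.51% with RA for 24 h. Pax6, Irx3 and Dbx1, genes of the intermediate neural tube, lay inside the range of the 9 others with RA for 36 h, with differences of 0.07, 0.00 and -0.09. They differed by -0.41, -0.48 and -0.78 with RA for 24 h, where Irx3 was lowest of the 10 compounds. Zic2, also of the dorsal list, differed by -0.41, -0.29 and 0.21 with RA for 36 h, with RA for 24 h and without RA. A second Zic2 probe, detected on 10 of 36 arrays, differed by -0.22, -0.04 and 0.32.

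None of these neural tube differences passed the adjustment over all genes. With RA for 36 h the unadjusted p of the limma fit was 0.001778 for Nkx6-1, 0.001386 for Zic1, 0.0152 for Msx1 and 0.04185 for Olig1, and the smallest adjusted p of these was 0.2977, for Zic1. With RA for 24 h Zic1 was again below all 9 others, at 5.03 and not detected against 5.08 to 6.16, a difference of -0.80, as 0.604% of genes were lowest in both RA schedules, while Nkx6-1 and Olig1 were 3rd and 2nd of 10 (0.28 and 0.35). Without RA Zic1 was detected on 0 of 10 compound arrays and Nkx6-1 on 2, neither of them Purmorphamine. The Nkx6-1 difference was larger by 1.72 with RA for 36 h than without RA (limma, unadjusted p = 0.00882, adjusted p = 0.9995).

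Over the lists, the 6 tested ventral genes had a median difference of 0.38 with RA for 36 h, -0.06 with RA for 24 h and -0.14 without RA, and the 6 dorsal and intermediate genes had -0.25, -0.45 and -0.12. The median of all genes lay between -0.01 and 0.01 in the 3 schedules. With RA for 36 h 4 of 6 ventral and 2 of 6 dorsal and intermediate genes were above the mean of the 9 others. Olig2, Nkx2-2, Pax3 and Pax7, the usual boundary markers, missed the detection filter, so the ventral and dorsal lists rest on few genes here. On the same Purmorphamine array the summed intensity of 5 neural markers was 1357 units against 1389 to 2027 units for the 9 others, that of 8 EpiSC markers 4239 against 4344 to 6367 units, and that of 5 trophoblast markers 365.5 against 263.9 to 351.2 units. Mesoderm markers summed to 85.69 against 70.09 to 84.26 units and blood and endothelium markers to 96.56 against 99.49 to 113.1 units, with none of either detected on that array, while the fibroblast sum of 1863 units lay inside 1088 to 2065 units. Zic1 is 1 of the 5 neural markers, and Dnmt3b was the 1 EpiSC marker below the range of the 9 others. Whether these sums have a part in the differences was not tested.

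Genes of the primary cilium, the organelle where Smoothened acts, gave no call. Of 26 listed, 19 were tested and 0 were called, and the median difference was 0.03. Ift122, an intraflagellar transport protein, was the 1 member under an unadjusted p of 0.05, with a difference of -0.35 (limma, unadjusted p = 0.02188, adjusted p = 0.9954). It had 6.04, 6.25 and 6.16 with Purmorphamine with RA for 36 h, with RA for 24 h and without RA, against medians of 6.40, 6.56 and 6.50, and was next to lowest or lowest each time. Tctn2, of the transition zone, had the highest difference of the list at 0.24, and Ift88, Ift172 and Kif3a differed by 0.00, 0.01 and -0.06.

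Across all genes, Purmorphamine against the 9 other compounds gave 0 of 16235 genes past an adjusted p of 0.05 (limma, 30 arrays, 26 residual degrees of freedom). At an unadjusted p of 0.05 there were 598 genes (3.68%), 340 higher and 258 lower. With 1 level per compound in the model the count was again 0, with 621 at an unadjusted p of 0.05. The gene with the smallest adjusted p was Hydin, at 0.2211. The 95% interval of a gene reached a median of 0.28 to either side of its difference.

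Hydin, a protein of the central pair of motile cilia, stood above the mean of the 9 others in all 3 schedules. The Purmorphamine arrays had 6.10, 5.53 and 5.75 with RA for 36 h, with RA for 24 h and without RA, and detected it each time. The 9 others had medians of 4.80, 4.64 and 5.22 and highest values of 5.36, 4.95 and 5.84, and detected it on 5 of 27 arrays. The groups do not overlap in the RA schedules, and without RA Rapamycin alone stood above Purmorphamine. The difference was 0.83 (SE 0.16), and with slide as the block in place of schedule it was 0.82 (SE 0.13) and Hydin was the 1 gene called of 16235 (0.00616%; limma, adjusted p = 0.01242; 4.26% at an unadjusted p of 0.05). This call was lost without either RA array of Purmorphamine and without BAPTA-AM. It was also lost with other normalisations (normexp, cyclic loess or the authors' log2 values) and with the filter of detection on 15 arrays. Against the 4 compounds of the slide alone (15 arrays) the adjusted p was 0.05322 and 0 genes were called (limma), with 612 (3.77%) at an unadjusted p of 0.05. The other Hydin probe was detected on 0 arrays and differed by 0.02.

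**Figure D3:**
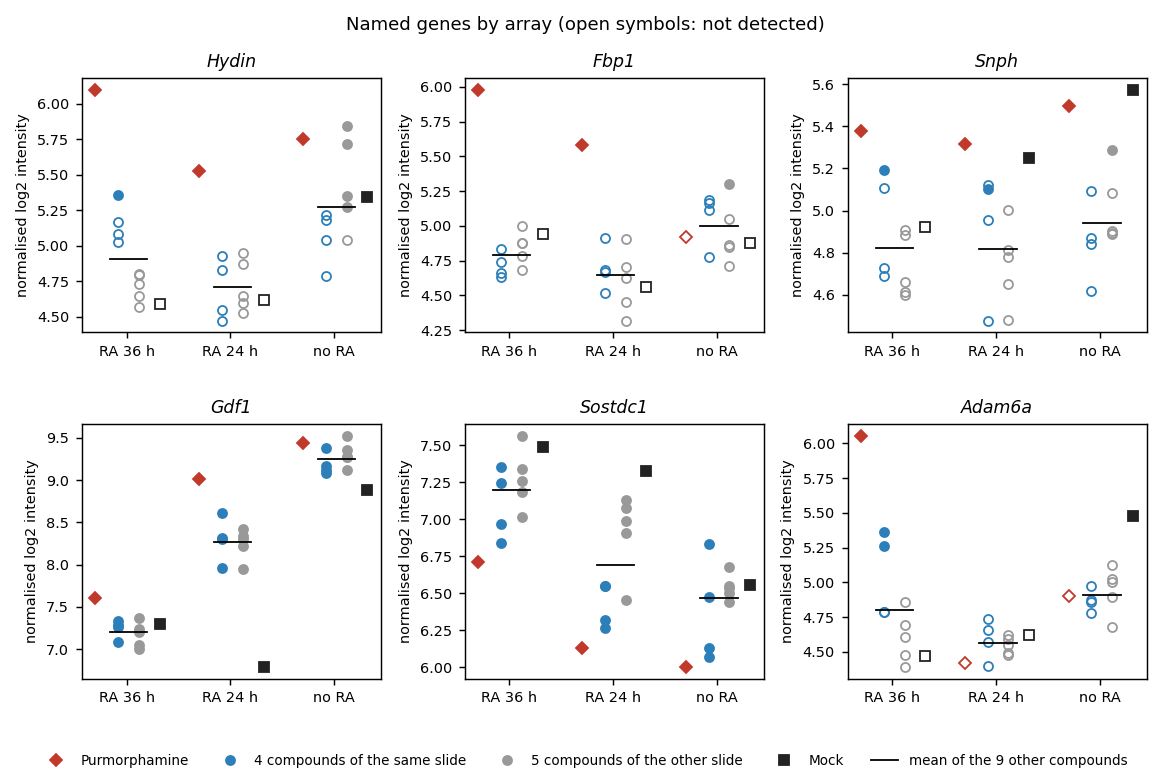
Normalised log2 intensity (y axis) of Hydin, Fbp1, Snph, Gdf1, Sostdc1 and Adam6a on each array by schedule (x axis), with symbols as in the plot of Hedgehog and neural tube genes: diamonds for Purmorphamine, circles for the 9 other compounds, squares for Mock, open where not detected. Hydin stands at 6.10, 5.53 and 5.75 with Purmorphamine, Fbp1 is detected with Purmorphamine and with no other compound in both RA schedules, and Sostdc1 is lowest with Purmorphamine in every schedule.

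Fbp1, fructose-1,6-bisphosphatase of gluconeogenesis, was detected with Purmorphamine in both RA schedules and on 0 of the 18 other compound arrays with RA. It was detected on 4 of 36 arrays, 2 of them Purmorphamine, so it passed the filter of detection on 3 arrays only with these. The stricter filter of detection on 15 arrays left it out. Its level was 5.98 with RA for 36 h, against 4.63 to 5.00, and 5.58 with RA for 24 h, against 4.32 to 4.91. That is at least 1.76-fold and at least 1.35-fold higher, taking the detection limit of each dim array as its level. It was called with RA for 36 h (difference 1.19; limma, adjusted p = 0.01516) and on the RA arrays alone (1.07, adjusted p = 0.0005767), but not over all 3 schedules (0.68, adjusted p = 0.4504). The Purmorphamine arrays behind these calls also brought Fbp1 into the tested set, and the spread came mostly from arrays that did not detect it. Without RA it had 4.92, inside a range of 4.71 to 5.30. It was called in 17 of 20 other settings of the RA comparison, and not with the authors' log2 values, where the difference was 0.14 (adjusted p = 0.6106), nor with normexp at an offset of 50 (0.58, adjusted p = 0.4385), nor without the Purmorphamine array with RA for 36 h (0.94, adjusted p = 0.2109).

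Of all genes, 13.7% stood above the mean of the 9 others in all 3 schedules and 14.2% below it. Of those above it, the 10 with the smallest p did not pass over all schedules. Wdr81 (0.56), the receptor subunit gene Lifr (0.50), the syntaphilin gene Snph (0.54), the bestrophin gene Best1 (0.53) and the glucose-6-phosphatase gene G6pc2 (0.46) were each detected on 1 to 3 of the 27 other arrays. G6pc2 was detected on 3 of 36 arrays, 2 of them Purmorphamine, and passed the detection filter only with these. Snph had 5.38, 5.31 and 5.50 with Purmorphamine and was highest of 10 compounds in every schedule, as were 0.0616% of all genes, with 5.20, 5.12 and 5.29 as the highest of the others. A second Lifr probe differed by -0.04, so the value holds for the named probe.

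Gdf1, a ligand of the Nodal pathway, belongs to this group and was detected on all 36 arrays. It had 7.61 with Purmorphamine with RA for 36 h, against a lowest of 7.00, a median of 7.24 and a highest of 7.37. With RA for 24 h it had 9.02, against 7.95, 8.31 and 8.61, and without RA 9.44, against 9.08, 9.27 and 9.53. Gdf1 was thus above all others in both RA schedules and 2nd of 10 without RA, with a difference of 0.45 (SE 0.11; limma, unadjusted p = 0.0002672, adjusted p = 0.6196). The dermatan sulfotransferase Chst14 (0.68), the kinase Prkce (0.55) and the arrestin-domain gene Arrdc2 (0.57) complete the group, with adjusted p of 0.9954 each (limma).

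The 10 genes with the smallest p that stood below the mean in all 3 schedules did not pass either (limma, adjusted p = 0.9954 each). Zic1 (-0.76) is among them, and Sostdc1, a secreted antagonist of BMP and Wnt signals, is the one that was lowest of the 10 compounds in every schedule, as were 0.0493% of all genes. Sostdc1 had 6.71, 6.13 and 6.0 with Purmorphamine, against lowest values of 6.84, 6.27 and 6.07 and medians of 7.24, 6.55 and 6.50 among the 9 others (difference -0.51, SE 0.15, unadjusted p = 0.002483). Against the slide mates alone the difference was -0.35 (unadjusted p = 0.02729). Shisa2 (-0.51), which retains Wnt and FGF receptors inside the cell, and the heparan sulfate proteoglycan Sdc3 (-0.51) were detected on all 27 other arrays, as were Rab32 (-0.34) and the phosphodiesterase Pde1b (-0.35). Creb3l4 (-0.59), Clba1 (-0.50), Npffr2 (-0.45) and Habp4 (-0.39) complete the list.

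Slide as a block added Rhobtb2 (-0.36), Bicc1 (-0.26) and Limch1 (-0.45) to the genes named by the same rule among those lower, and the comparison with the slide mates alone added Abcg3 (0.41) and Kcnj8 (0.49) among those higher and Aplp1 (-0.50), Ecm1 (-0.26) and Pam (-0.44) among those lower, given here as differences from all 9 others. None of these 8 passed a threshold in any of the fits by limma. Other tested probes of Rhobtb2 differed by -0.21, -0.09 and 0.10, those of Bicc1 by -0.19, -0.0031 and -0.23, and that of Pam by 0.09.

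Taken by schedule, 4 genes were called with RA for 36 h (0.0246%; limma, 881 or 5.43% at an unadjusted p of 0.05), 1 with RA for 24 h (0.00616%; 533 or 3.28%), and 0 without RA (369 or 2.27%). The 4 were Fbp1, Adam6a, Pcdhb4 and Lrrc52, all higher with Purmorphamine, and the 1 was a probe with no gene name. Adam6a had 6.05 against 4.39 to 5.36, Pcdhb4, a protocadherin, 6.34 against 4.50 to 5.19, and Lrrc52, a subunit of potassium channels, 5.80 against 4.49 to 4.95. None of these 3 was above the range of the 9 others in another schedule, and each was detected on 4 to 7 of 36 arrays. Each of these calls rests on 1 Purmorphamine array, whose spread is taken from the other compounds. Differences between schedules gave 0 genes for each of the 3 pairs (limma, with 3.87% at an unadjusted p of 0.05 for RA for 36 h less no RA, 2.33% for RA for 24 h less no RA and 4.24% between the RA schedules). Without the Purmorphamine array without RA, 5 genes were called over the remaining 29 arrays (0.0308%, with 4.61% at an unadjusted p of 0.05), all higher: Fbp1, Hydin, Peli3, Tmc5 and an unnamed probe. Ptch1 was not among these 5 (difference 0.79; limma, adjusted p = 0.5584).

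**Figure D4:**
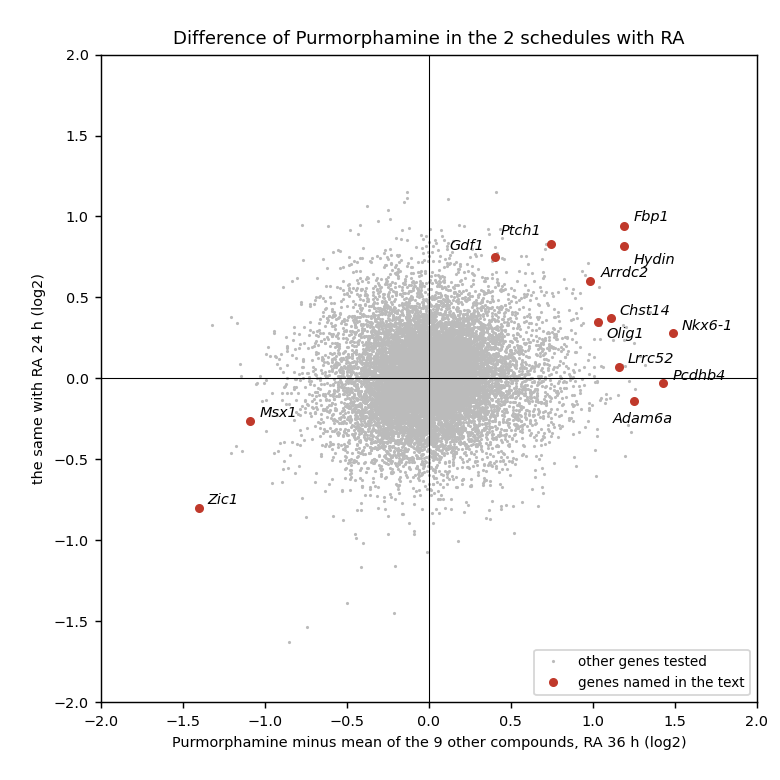
Difference of Purmorphamine from the mean of the 9 other compounds with RA for 24 h (y axis, log2) against that with RA for 36 h (x axis, log2), with each of the 16235 genes as a grey dot and named genes in red. Fbp1 (1.19 and 0.94), Hydin (1.19 and 0.82) and Ptch1 (0.75 and 0.83) lie apart from the cloud in both, Zic1 (-1.41 and -0.80) at the opposite corner, and Adam6a, Pcdhb4 and Lrrc52 to the right, near 0 on the y axis.

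Set beside the other compounds in the same kind of fit, Purmorphamine was 1 of 9 compounds with no call. Docetaxel against its 9 others gave 172 genes (1.06%), and each of these 9, Purmorphamine included, gave 0 (limma). At an unadjusted p of 0.05 Purmorphamine had 598 genes, Docetaxel 1920 and the other 8 between 534 and 894. The number of genes with a small p for Purmorphamine thus lay inside the range of the compounds that had no call. As each compound is part of the comparator of the others, these counts are not independent of each other.

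**Figure D5:**
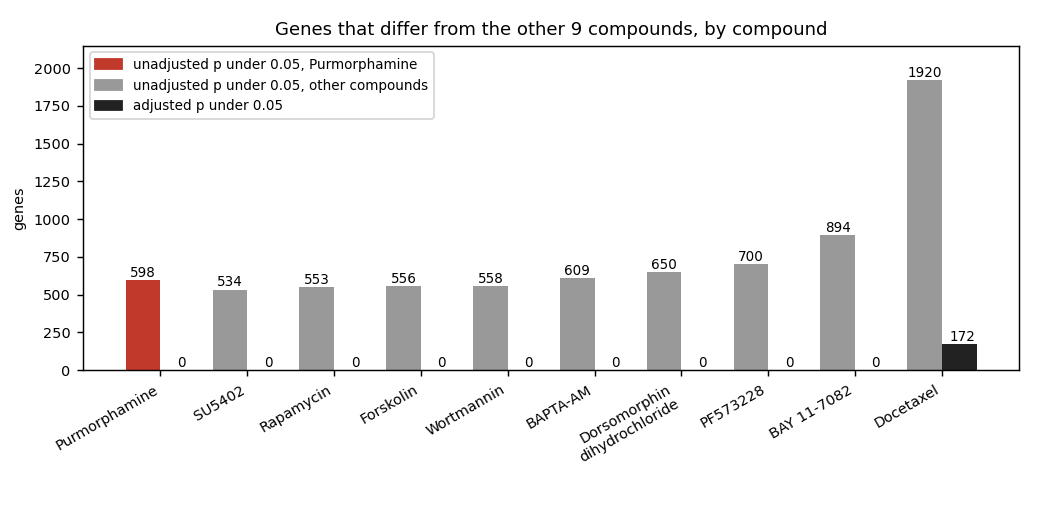
Number of genes (y axis, from 0) with an unadjusted p under 0.05 (red for Purmorphamine, grey for the other compounds) and an adjusted p under 0.05 (black bars) when each compound (x axis) is set against its 9 others over the 3 schedules. Purmorphamine has 598 and 0, the 8 other compounds without a call 534 to 894, and Docetaxel 1920 and 172.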

How the data were processed

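The authors deposited raw intensity values of 45281 probes on 36 arrays and, per the file headers, the p-value of detection of each. Between 30.18% and 36.61% of the values of an array are below 0. The authors' log2 values, variance-stabilised and then spline-normalised with lumi per the submitters' processing notes (version not stated), served as an alternative.

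Intensities were normalised with neqc of limma 3.58.1 in R 4.3.3 (offset 16, quantile). The filter left 23999 probes, those detected (p under 0.05) on 3 or more arrays. Fbp1, Foxf1, G6pc2, Abcg3, Dpf3, Rnf43 and Foxd3 passed it only with Purmorphamine arrays among those that detected them. The brightest probe stood for a symbol and unnamed probes for themselves, giving 16235 genes, 12367 with a symbol. GEO's platform annotation gave 34885 probes 1 symbol, 18 several and 10378 none.

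Differences came from limma (lmFit, eBayes) on the 30 compound arrays with schedule, or slide (6, named by the column headers and each within 1 schedule for the compounds), as a block, and on 15 slide mate arrays, with Benjamini-Hochberg adjustment over all genes. Ptch1 and Hhip were also tested by exact permutation, two-sided. The fits were tested on simulated data. The labels do not say that arrays came from separate cultures, so p-values measure the spread between these arrays, of which the number limits precision. The spread includes differences among the 9 other compounds.

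Named genes are the 10 of smallest p in each direction with the same sign in all 3 schedules, since none passed, 5 each way for the slide fits, those called by schedule, and tested members of 7 lists (Hedgehog ligands, receptors, transducers, targets, ventral and dorsal neural tube, primary cilium). Clone names were counted only. In all 28 lists hold 343 genes, of which 315 were annotated and 271 tested. The members and lists were chosen with earlier results of these data known. The RA comparison and its exact test were added after seeing the data. Where a gene was detected on no array of one side, a lower bound on its fold takes, per array, the higher of its level and that array's lowest detected level. Promoter sequences are RefSeq's, build GRCm38.p6.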

Additional observations from a re-analysis of the deposited data

How the results depend on the processing

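Counts of called genes moved with the processing. Over all schedules the count of 0 became 1 with slide as a fixed block, 3 on the RA arrays alone and 0 to 5 when single Purmorphamine arrays or single compounds were left out, the 5 without the Purmorphamine array without RA. On the RA arrays alone the count of 3 became 1 with normexp, cyclic loess, the authors' values, no filter or 1 level per compound, 0 with detection on 15 arrays, and 1 to 4 with a compound or array left out (1 without the Purmorphamine array with RA for 36 h, Rapamycin, PF573228, BAY 11-7082, Docetaxel or SU5402). With slide as a block the 1 call became 0 with normexp, cyclic loess, the authors' values or detection on 15 arrays, and was 0 to 1 with parts left out (0 without either RA array of Purmorphamine or without BAPTA-AM). Against the slide mates the mean of the probes gave 1, and leaving out gave 0 to 3 (3 without the Purmorphamine array without RA). With RA for 36 h the 4 calls became 0 with normexp, cyclic loess, the authors' values or detection on 15 arrays, 123 with no filter, and 1 to 6 with parts left out (1 without Rapamycin, PF573228 or Dorsomorphin dihydrochloride, 2 without BAY 11-7082 or Wortmannin). With RA for 24 h the 1 call became 0 with normexp, the authors' values or detection on 15 arrays, 12 with no filter, and 1 to 2 with parts left out (2 without BAY 11-7082). Without RA no filter gave 1 and leaving out 0 to 1 (1 without Wortmannin). Each difference between schedules gave 1 with no filter, and that between the 2 RA schedules 0 to 2 with parts left out (2 without BAY 11-7082). The number of compounds with a call, 1, became 6 with no filter and 0 to 2 with parts left out (0 without Docetaxel). The causes were not tested. Of 2117 values of 93 named genes under other settings 2045 kept the sign, and 62 genes kept it under every setting. No paired analysis was possible because each compound has 1 array per schedule and the labels give no replicate numbers that groups share. Depth limits dim genes most: calls such as Fbp1 and Hydin lie near the detection limit, while Ptch1 was detected on all 36 arrays.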

Other observations

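The lists other than those of Hedgehog, neural tube and cilium genes held 212 tested genes, of which 0 were called (limma). An unadjusted p under 0.05 was found for 10 of them, 5 higher and 5 lower, and Msx1, given with the dorsal genes, is 1 of those lower. Lamb1, a laminin chain of basement membranes that extraembryonic endoderm makes, had 5.97 with Purmorphamine with RA for 36 h, against a lowest of 6.05, a median of 6.96 and a highest of 7.21 in the 9 others. With RA for 24 h it had 4.94, against 4.97, 5.72 and 6.36, and without RA 5.60, against 5.53, 6.04 and 6.67. Lamb1 was lowest or next to lowest of the 10 compounds in each schedule (difference -0.68, SE 0.23, unadjusted p = 0.006838, adjusted p = 0.9954 by limma). It had the lowest difference of the 13 tested extraembryonic endoderm genes, whose median was -0.12. Of these 13, 6 were below the mean of the 9 others in all 3 schedules and 2 above it. Lama1, of the same list, was above all 9 others with RA for 36 h (10.90 against 10.46 to 10.78) and below them with RA for 24 h (9.28 against 9.30 to 9.79). Sp5, a Wnt target, differed by -0.66, and Sall4, a pluripotency factor, by -0.21. Foxa1 differed by -0.41. Among those higher, Spry4, a feedback inhibitor of FGF signalling, differed by 0.39 and was above all others without RA, at 7.96 against 7.23 to 7.70, and with RA for 24 h, at 6.27 against 5.22 to 6.16. Rnf43 (0.38) and Foxd3 (0.33) were each detected on 2 of the 27 other arrays, and Lefty2, a Nodal antagonist, differed by 0.33. The RA degrading enzyme Cyp26a1 had 9.80, 11.44 and 7.88 with Purmorphamine with RA for 36 h, with RA for 24 h and without RA, against medians of 9.72, 11.03 and 8.17.

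In all 3 schedules 10 genes (0.0616% of 16235) were highest or tied highest of the 10 compounds with Purmorphamine and 8 (0.0493%) were lowest, and these genes were singled out after their values were seen. Of the 14 with a gene name, Rab34, a small GTPase of ciliary membranes needed for Hedgehog signalling in mice, was detected on all compound arrays. It had 11.30, 11.19 and 10.98 with Purmorphamine, against highest values of 11.30, 11.06 and 10.88 in the 9 others (difference 0.19, SE 0.06). Pou3f1, a POU factor of epiblast and neural precursors, had 10.84, 11.26 and 11.87, against highest values of 10.75, 11.15 and 11.86 (difference 0.27, SE 0.10). The differences are small, and several gaps to the nearest compound were far smaller than the standard error: Nipa1 with RA for 24 h had 8.02 against 8.01, and Prkce without RA 5.79 against 5.78. Commd5 (0.28), Nipa1 (0.32), Dpf3 (0.45), Snph and Prkce were the others that were highest throughout, and Ppia (0.08) was tied at 15.58 with SU5402 with RA for 36 h and highest in the other schedules. Crkl (-0.24), an adaptor of receptor tyrosine kinases, Pdpn (-0.24), Zfp169, Tm6sf2, Slc25a2 and Sostdc1 were lowest throughout. Zfp169, Tm6sf2 and Slc25a2 were detected on 0 of 3 Purmorphamine arrays and on 6, 3 and 5 of the 27 others, so their ranks lie mostly among undetected values. None of these differences passed the adjustment over all genes (limma, adjusted p of 0.9954 for each but Snph, at 0.5362).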
